A study of Rattus rattus with 18 samples.

Results

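The cluster of miR-183, miR-96 and miR-182 was followed across the arrays through its 3 members, rno-miR-182 (miR-182), rno-miR-183-5p (miR-183-5p) and rno-miR-96-5p (miR-96-5p), which are 3 of the 761 rat microRNAs (miRNAs) on the array. The members were chosen by their names together with measured intensities in the contrast of PostC against tMCAO, so their values in that contrast are given as a description with no test. The material was brain tissue of 9 Sprague Dawley rats (male, per the methods), of which 3 were sham-operated, 3 underwent transient middle cerebral artery occlusion (tMCAO, in which a filament closes the artery and is then withdrawn) and 3 carried the label remote limb postconditioning (PostC, brief interruptions of blood flow to a limb). Each rat gave 1 array labelled core and 1 labelled peri, for the tissue next to the core, 18 arrays in all. The labels do not say whether the PostC rats also had the occlusion, and the study's account of the array experiment names only sham and tMCAO animals. The labels place core in temporo-parietal cortex and peri in striatum, whereas the methods place them the other way round, so the names core and peri are used here without an anatomical site. The organism field of the labels reads Rattus rattus, while the strain is one of laboratory Rattus norvegicus. The methods give an early and a late time of sacrifice after reperfusion for tMCAO and do not say which applies to the arrays. The age of the animals is not given in the sources used here.

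The 3 hairpins of this cluster lie next to each other in the genome and are cut from a shared primary transcript. Their mature products are best known from sensory cells, the photoreceptors of the retina, the hair cells of the inner ear and sensory neurons, and miR-182 is also induced in activated lymphocytes. A mature miRNA recognises its target mRNAs mainly through its seed, bases 2 to 8 from the 5′ end. The sequences the probes were designed to detect, as the array files give them, are shown because the close likeness of the members bears on how their signals are read. The seed is in capitals.

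miR-182: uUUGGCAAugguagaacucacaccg
miR-183-5p: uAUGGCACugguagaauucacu
miR-96-5p: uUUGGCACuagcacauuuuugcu

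The seeds of miR-182 and miR-96-5p matched at 6 of 7 bases, those of miR-183-5p and miR-96-5p at 6, and those of miR-182 and miR-183-5p at 5. Aligned from the 5′ end without gaps, miR-182 and miR-183-5p were identical at 18 of 22 positions, miR-183-5p and miR-96-5p at 13 of 22, and miR-182 and miR-96-5p at 12 of 23. None of the other probes on the array shared its whole seed with a member. The longest run of bases that miR-182 shared with a probe outside the cluster was 9, for example with miR-301b-3p.

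Before the members are described, 3 arrays have to be named that stood apart from the other arrays of their group. Across the 532 miRNAs tested, arrays of a group correlated with each other at r between 0.831 and 0.985. The lowest values belonged to the core array of PostC rat 3, which correlated with the other PostC core arrays at 0.831 and 0.869 and most closely with the peri array of PostC rat 1 (0.907). The peri array of PostC rat 3 reached 0.894 and 0.898 within its group and was closest to the peri array of tMCAO rat 1 (0.962). The core array of sham rat 2 reached 0.890 and 0.899 within its group and was closest to the peri array of PostC rat 1 (0.926). Group differences in miR-182 that rest on these rats are given with and without them. The arrays also differed in sensitivity. A miRNA counted as detected where its 4 spots had a median above a limit set on each array, the empty spots' median plus 3 scaled median absolute deviations. The limit had its median at 58.5 intensity units in sham core, 113 in tMCAO core, 179 in PostC core, 131 in sham peri, 338 in tMCAO peri and 184 in PostC peri. On some arrays, none of them sham, the empty spots had a higher median than the miRNA spots. These were both arrays of tMCAO rat 3, the core arrays of PostC rats 1 and 2 and the peri array of PostC rat 3. On the peri array of tMCAO rat 3 the medians were 221 and 129. There the limit does not measure the background of the miRNA spots, and near background refers below to this limit only. The number of miRNAs detected ranged from 188 on the peri array of PostC rat 3 to 605 on the core array of the same rat.

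Of the 3 members only miR-182 was detected. Its spots exceeded the limit on 12 of 18 arrays, among them all 6 sham arrays, all 3 PostC core arrays, 2 of 3 PostC peri arrays, 1 of 3 tMCAO core arrays and none of the tMCAO peri arrays. With a limit set from the dimmest 25% of miRNA spots, miR-182 was detected on 18 of 18 arrays. The pattern of detection by group therefore depends on the limit. Under the limit from the empty spots, 153.5 units counted as detected on the core array of sham rat 3. On the peri array of tMCAO rat 3, 223.69 units did not. The 4 spots of miR-182 on an array agreed closely, with an SD between 0.02 and 0.24 on the log2 scale.

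miR-183-5p was detected on 0 of 18 arrays under either limit. Its median spot lay between 33.4 and 109 intensity units and reached at most 0.74 times the limit of its array, and the normalized table deposited by the authors lists it between 0.01 and 2.98 units. miR-96-5p was also detected on 0 of 18 arrays, with median spots of 36.4 to 129 units that came to at most 0.95 times the limit. With the limit from the dimmest spots it was detected on 3 arrays, 1 each of tMCAO peri, PostC peri and sham core. The brightest miR-182 signal of the series was on the core array of PostC rat 3, at 29.7 times the limit, and on that array the miR-183-5p probe read 0.74 times the limit although the 2 sequences match at most positions. The opposite arms of the same hairpins, miR-183-3p and miR-96-3p, were detected on 0 of 18 arrays each. For these probes the arrays give no level and no difference between groups, which does not show that the miRNAs were absent. They did not enter the tests.

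**Figure D1:**
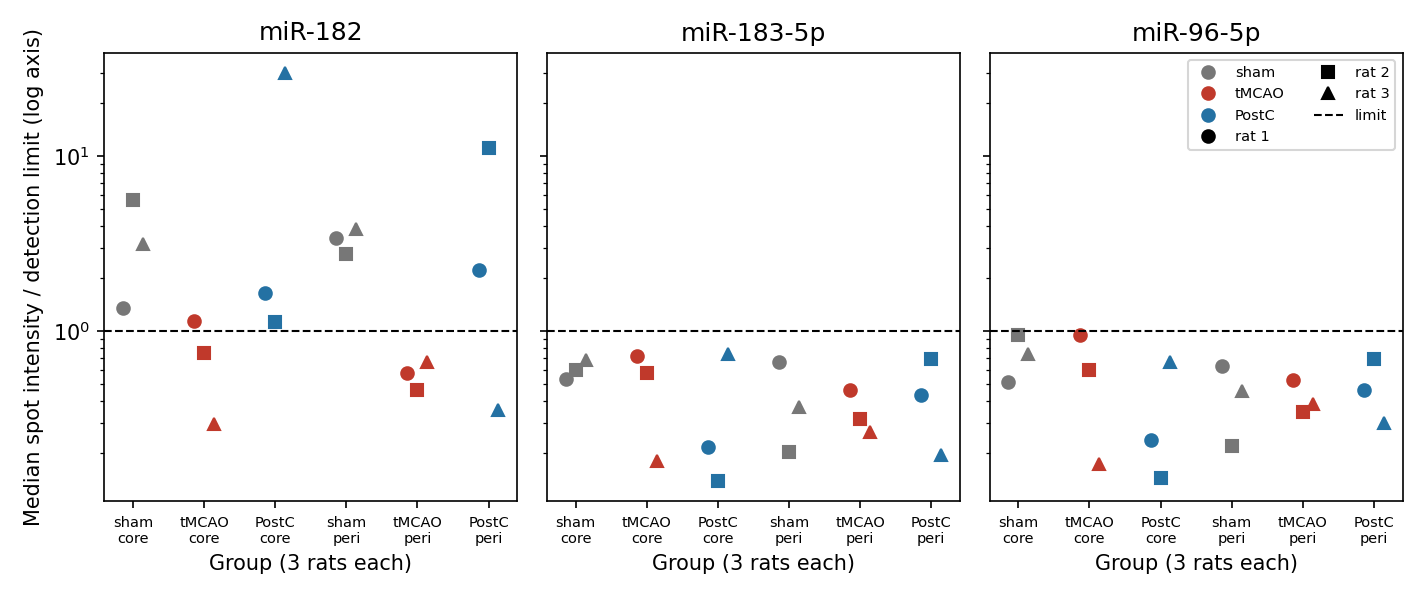
Median spot intensity of each member divided by the detection limit of its array, on a log axis, for the 18 arrays (colours mark the conditions, symbols the rats, the dashed line the limit). miR-182 lies above the line on 12 arrays and reaches 29.7 times the limit, whereas miR-183-5p and miR-96-5p stay below it on all 18.

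The level of miR-182 is given as normalized log2 intensity. In PostC core the 3 rats read 9.83, 8.49 and 10.22. In tMCAO core they read 7.16, 7.24 and 6.73, and in sham core 7.72, 8.48 and 7.44. All 3 PostC core arrays were above all sham core arrays, though the lowest PostC and the highest sham value nearly met, and all 3 tMCAO core arrays were below both groups. In peri tissue the sham rats read 8.10, 8.54 and 8.90. The PostC rats read 8.72, 9.11 and 7.52 and the tMCAO rats 7.65, 7.43 and 8.22. In peri the 3 groups overlapped, with PostC rat 3 at the level of the tMCAO rats.

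From highest to lowest, the group means were 9.52 ± 0.91 in PostC core, 8.52 ± 0.40 in sham peri, 8.45 ± 0.83 in PostC peri, 7.88 ± 0.54 in sham core, 7.77 ± 0.41 in tMCAO peri and 7.04 ± 0.28 in tMCAO core (normalized log2 intensity, mean ± SD, n = 3 rats each). Each pair of neighbours in this order overlapped in range, except tMCAO peri and tMCAO core. In the normalized table that the authors deposited, on a linear scale, the means were 599.9 ± 345 units in PostC core, 161 ± 91.0 in sham core and 27.8 ± 4.10 in tMCAO core, and 266 ± 185 in PostC peri, 265 ± 85.4 in sham peri and 89.9 ± 82.3 in tMCAO peri (SD, n = 3). These are levels in whole tissue, in which fewer cells of a type and less RNA per cell cannot be told apart.

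**Figure D2:**
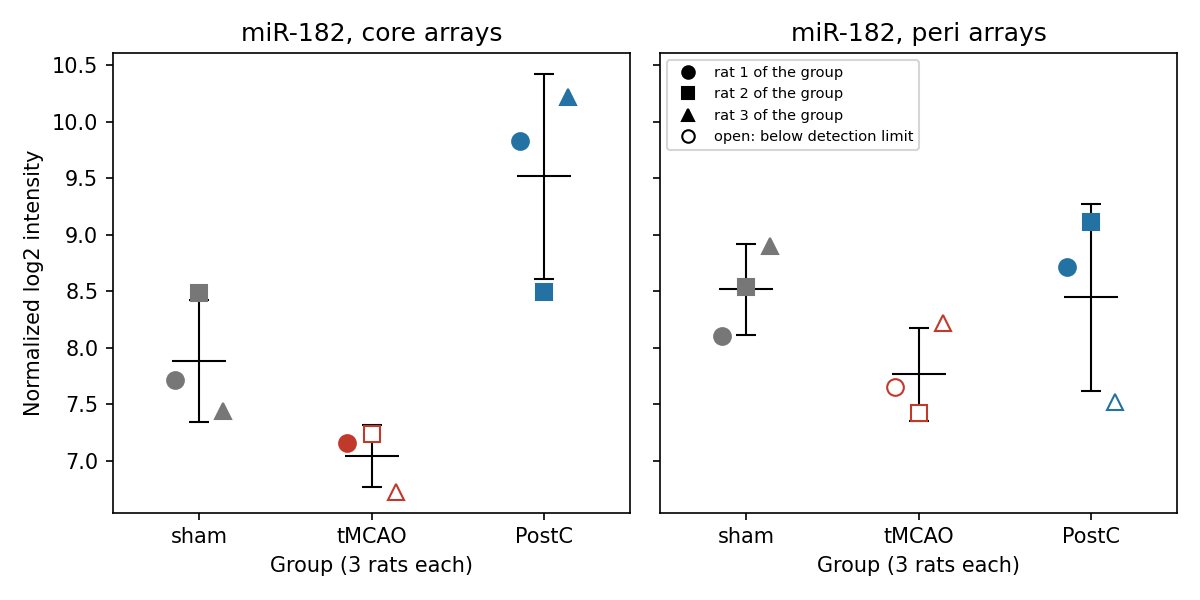
Normalized log2 intensity of miR-182 on each core array (left) and peri array (right) by condition; filled symbols were above the detection limit, open symbols below it, and the bars give the mean and SD of 3 rats. In core the PostC rats lie between 8.49 and 10.22 and the tMCAO rats between 6.73 and 7.24, while in peri the groups overlap.

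For PostC against tMCAO, the contrast used to choose the members, miR-182 was higher by 2.47 on the log2 scale in core, and the groups did not overlap. As 2 of the 3 tMCAO core arrays were below the detection limit, the size of this difference rests on signal near background. Of all miRNAs tested in core, 18.6% had groups that did not overlap, 12.0% with PostC higher, and limma called 2.26% of them at an adjusted p of 0.05. Without PostC rat 3 the difference in core was 2.12. It was 6.12 with plain background subtraction, in which all spots of miR-182 in tMCAO rat 3 took the floor of 1, and 4.26 in the deposited table. In peri miR-182 was higher in PostC by 0.68 as measured, with overlapping groups. Of the miRNAs tested in peri, 7.89% had groups that did not overlap, and limma called none (31 passed an unadjusted p of 0.05). These log2 values are not folds of a detected signal, since miR-182 was below the limit on all 3 tMCAO peri arrays and on 1 of the 3 PostC peri arrays. With each tMCAO array set to the lowest signal detected on it, or to the probe's own where that was larger, the PostC mean was 1.11 times the tMCAO mean, which is no strict lower bound because the undetected PostC array entered at its measured value. Without PostC rat 3 the measured difference in peri was 1.15, and without PostC rat 2 it was 0.35.

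The tests against sham ask whether miR-182 changed with the occlusion or in the PostC group. The tMCAO and PostC arrays in them are those of the contrast above, so they are no independent evidence. In core miR-182 was lower in tMCAO than in sham by 0.84 on the log2 scale (95% confidence interval of tMCAO minus sham -1.94 to 0.26, SE 0.49), and the difference did not pass (limma, adjusted p = 0.321). The 3 tMCAO values were below the 3 sham values, which by itself says little, as the groups did not overlap for 41.0% of all miRNAs tested and 24.2% were lower in tMCAO in this way. limma called 3.38% of the miRNAs in this comparison. As miR-182 was below the limit on 2 of the 3 tMCAO arrays, the size of the difference rests on signal near background. Without sham rat 2 the difference was -0.54 (limma, adjusted p = 0.65). In peri the difference was -0.75 (95% confidence interval -1.65 to 0.15, SE 0.42; limma, adjusted p = 0.419). The ranges overlapped (31.6% of miRNAs did not), and limma called 0.564% of all miRNAs. With median scaling the difference was -1.46 and passed (limma, adjusted p = 0.0422), and with plain background subtraction it was -3.05 without passing (limma, adjusted p = 0.317), and under both the ranges did not overlap. In tMCAO rat 1 the median spot of miR-182 (46.6) was below that of the empty spots (47.9), so plain subtraction set spots there to the floor. Since miR-182 was detected on all 3 sham peri arrays and on 0 of the 3 tMCAO peri arrays, this comparison gives a bound only. With the tMCAO arrays set in the same way, the sham mean was at least 1.17 times the tMCAO mean. This bounds the means of these arrays only and takes no account of the spread between rats.

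In core miR-182 was higher in PostC than in sham by 1.64 on the log2 scale (95% confidence interval 0.54 to 2.74, SE 0.49), and all 3 PostC values exceeded the sham values. The unadjusted limma p was 0.00777, and after adjustment over all miRNAs the difference did not pass (limma, adjusted p = 0.131). Groups without overlap were found for 22.0% of all miRNAs in this comparison, 10.9% with PostC higher, and in the deposited table the miR-182 values of PostC and sham core did overlap. limma called 0 miRNAs of the 532 here, whereas 90 had an unadjusted p under 0.05. The call depended on single rats, since without PostC rat 2, the PostC rat with the lowest core value, the difference was 2.15 (limma, adjusted p = 0.0494) and without PostC rat 3 it was 1.28 (limma, adjusted p = 0.174). Without sham rat 2 it was 1.94 (limma, adjusted p = 0.16). In peri PostC and sham differed by -0.07 (95% confidence interval -0.97 to 0.84; limma, adjusted p = 0.991). This value turned to 0.40 without PostC rat 3. Non-overlap was found for 5.08% of miRNAs in that comparison, and limma called 0 with 14 at an unadjusted p under 0.05.

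Within a rat, the core and peri arrays could be compared directly. In sham rats miR-182 was lower in core than in peri in each rat, with core minus peri at -0.39, -0.06 and -1.46 on the log2 scale. The mean difference of -0.64 did not pass (SE 0.55; limma on the paired differences, adjusted p = 0.972), and it was -0.22 without sham rat 3 and -0.92 without sham rat 2. With plain background subtraction it was -1.30 (limma, adjusted p = 0.999). All 3 rats differed in the same direction for 42.1% of all miRNAs, and peri was higher in all 3 for 20.3%. limma called 0 miRNAs between the sham regions, and 29 had an unadjusted p under 0.05. In tMCAO rats the normalized values differed by -0.49, -0.19 and -1.49, but 5 of these 6 arrays were below the detection limit, and in rat 1 only the core array was above it, so no direction is read from them. In PostC rats the differences were 1.12 in rat 1, -0.62 in rat 2 and 2.70 in rat 3. The value of rat 3 rests on the 2 arrays that stood apart, of which the peri array was below the limit, so only rats 1 and 2 gave a difference between arrays that both detected miR-182, and these went in opposite directions. Differences between conditions were not tested here.

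The average of a rat's core and peri arrays was examined after the values by array had been seen. It was 8.98 ± 0.25 in PostC, 8.20 ± 0.30 in sham and 7.40 ± 0.07 in tMCAO (normalized log2 intensity, SD, n = 3 rats), with ranges of 8.80 to 9.27, 7.91 to 8.51 and 7.33 to 7.47. These SDs are narrow in part because the 2 arrays of some rats deviated from their group means in opposite directions. By array the SD was 0.91 and 0.83 in PostC core and peri, and 0.28 and 0.41 in tMCAO. PostC rat 3 read 10.22 in core and 7.52 in peri, and tMCAO rat 3 was lowest of its group in core and highest in peri. The non-overlap, SE and adjusted p of the rat means rest on this narrowed spread. The 3 groups did not overlap, an order that 1.32% of all miRNAs tested showed in the rat means. The choice of the members fixes this order in part, so nothing is read from that share. Of the 6 tMCAO arrays in these means 5 were below the detection limit, so the tMCAO means and the differences from them rest on signal near background. PostC exceeded tMCAO by 1.58, a contrast in which 26.1% of miRNAs did not overlap and 5.64% were called by limma, and the difference was 1.63 without PostC rat 3. The tMCAO mean was below the sham mean by 0.80 (difference -0.80, SE 0.22; limma, adjusted p = 0.0435), where 41.0% of all miRNAs did not overlap and limma called 11.8%. Under the main settings this was the only tested comparison of miR-182 with an adjusted p under 0.05. It was not planned, and it uses tMCAO arrays of the contrast that chose the members. The call was lost under several other settings and when any of 6 rats was left out (limma, adjusted p from 0.0536 to 0.158), among them sham rat 2 (-0.64; limma, adjusted p = 0.0841). In the same comparison limma called 4 of 7 neuron miRNAs lower, 2 of 4 tested leukocyte miRNAs higher and 1 of 2 tested red blood cell miRNAs higher (miR-486, limma, adjusted p = 0.0095). miR-486 was detected on 0 of 3 tMCAO peri and 1 of 3 sham peri arrays. The other red blood cell miRNA, miR-451-5p, detected on all 18 arrays, differed by 0.14 (limma, adjusted p = 0.808). The part of these cell types in the miR-182 difference was not tested. PostC exceeded sham by 0.78 (SE 0.22; limma, adjusted p = 0.248), where 18.2% of miRNAs did not overlap and limma called 0.188%, by 0.84 without PostC rat 3 (limma, adjusted p = 0.224) and by 0.94 without sham rat 2 (limma, adjusted p = 0.115). The non-overlap of PostC and sham was lost with median scaling, plain background subtraction and the deposited table.

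**Figure D3:**
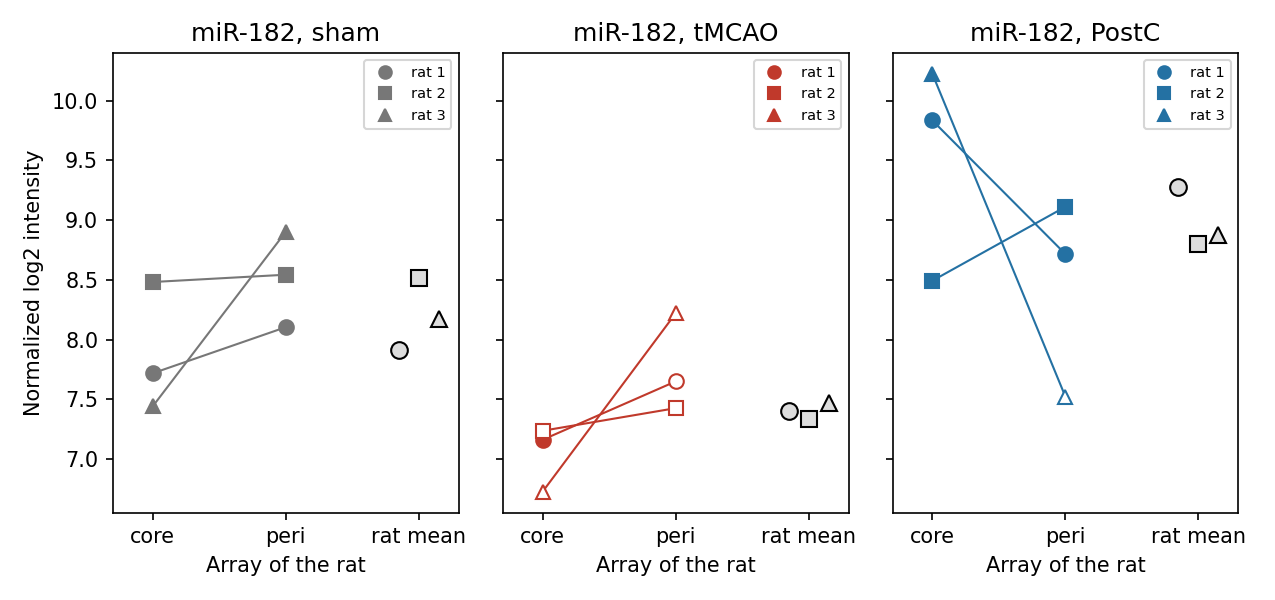
Normalized log2 intensity of miR-182 on the core and peri arrays of each rat, joined by a line, and the mean of both (grey symbols), by condition; open symbols were below the detection limit. Core is lower than peri in each sham rat, 5 of 6 tMCAO arrays are below the limit, and the rat means lie within 7.33 to 7.47 in tMCAO, 7.91 to 8.51 in sham and 8.80 to 9.27 in PostC.

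The miRNAs whose values followed those of miR-182 most closely over the 18 arrays were miR-187-5p (Pearson r 0.943), miR-3574 (0.929) and miR-758-5p (0.926). The median correlation of miR-182 with all tested miRNAs was 0.00166. Leaving out any 1 array kept the 3 correlations at or above 0.919, 0.911 and 0.908. They remained when the group means were removed (0.891, 0.921 and 0.946), so the likeness includes the differences between arrays of the same group. As each rat has 1 array in a group, differences between rats and between arrays cannot be told apart there. The core and peri arrays of PostC rat 3, which stood apart, were not left out together. The points share their rats and arrays, and no p is given. These miRNAs showed no close sequence likeness to miR-182.

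miR-187-5p: aGGCUACAacacaggacc
miR-3574: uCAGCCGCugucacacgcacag
miR-758-5p: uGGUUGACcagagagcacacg

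None of them shared its seed with miR-182, with at most 2 of 7 seed bases identical by position, and the longest run in common was 6 bases. In core miR-187-5p averaged 9.58 ± 0.70 in PostC, 8.60 ± 0.41 in sham and 7.44 ± 0.06 in tMCAO (normalized log2 intensity, SD, n = 3). miR-3574 averaged 11.31 ± 0.70, 10.14 ± 0.43 and 8.99 ± 0.20 in the same order, and miR-758-5p 10.57 ± 0.83, 9.78 ± 0.71 and 8.36 ± 0.24. Each of the 3 had its highest mean in PostC core and its lowest in tMCAO core, as miR-182 did, which follows in part from how they were chosen. On the tMCAO core arrays miR-187-5p was detected on 1 of 3, so that its low mean there rests on signal near background, and the other two on 3 of 3. On the tMCAO peri arrays miR-187-5p was detected on 0, miR-758-5p on 1 and miR-3574 on 3 of 3.

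**Figure D4:**
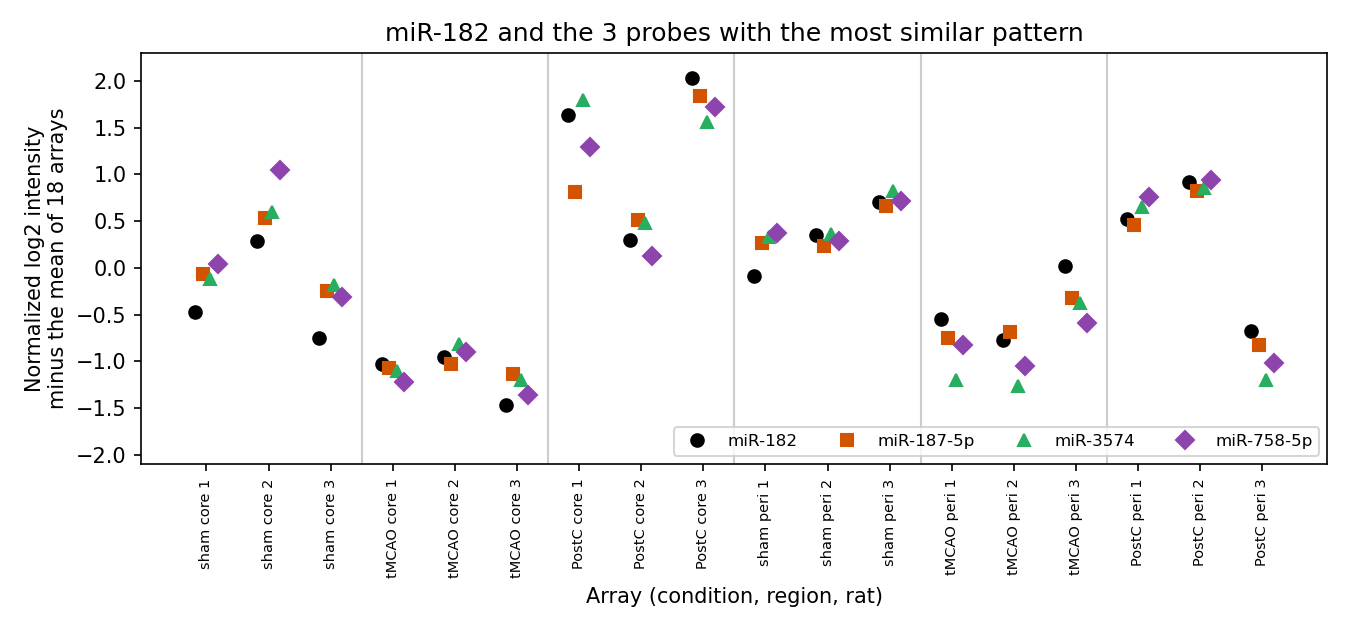
Normalized log2 intensity of miR-182, miR-187-5p, miR-3574 and miR-758-5p on each of the 18 arrays, each minus its own mean over the arrays. The 4 miRNAs are high together on the core arrays of PostC rats 1 and 3 and low together on the tMCAO core arrays and on the peri array of PostC rat 3.

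Other miRNAs typical of sensory organs were set beside the cluster, namely both arms of miR-124, miR-204 and miR-211, miR-184, and the miR-200 family with miR-141-3p and miR-429. Of these 12 probes 6 were tested, and limma called 0 in each direction in each comparison by region or rat mean. Their median difference between tMCAO and sham in core was -0.20, with 1 higher and 5 lower, beside a median of -0.05 over all miRNAs. Between PostC and tMCAO in core it was 0.11, beside 0.01 over all. miR-204-5p, known from the retinal pigment epithelium and the choroid plexus, averaged 10.47 ± 1.35 in sham core, 9.13 ± 0.48 in tMCAO core and 10.01 ± 0.98 in PostC core. miR-124-3p, which neurons of the brain and retina share, averaged 14.13 ± 0.20, 13.92 ± 0.09 and 14.06 ± 0.18. miR-184 and miR-429 were detected on none of the arrays.

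Markers of other cell types were read from the same arrays. In tMCAO against sham in core, limma called 2 of the 4 tested leukocyte miRNAs higher and 0 lower, beside 3.38% of all miRNAs called. The 2 were miR-150-5p (difference 1.55) and miR-155-5p (1.56). miR-155-5p was detected on 3 arrays only, 2 of tMCAO core and 1 of PostC core, and so entered the test through groups in which it was high. miR-223-3p differed by 1.35 (limma, adjusted p = 0.308) and miR-142-5p by -0.46 (limma, adjusted p = 0.401), and the median of the 4 was 1.45. The summed linear level of the leukocyte list, over 5 probes, was 6353 to 11370 in tMCAO core, 4893 to 7700 in PostC core and 2684 to 3476 in sham core, of which miR-150-5p made up 77.8% to 92.6% over the 18 arrays. miR-142-3p, a defining leukocyte miRNA, was detected on 1 sham core array and on none of the tMCAO or PostC core arrays. Of 7 miRNAs of neurons, all tested, 5 were lower in tMCAO than in sham core (median -1.89, 0 called), and their summed level was 62670 to 72500 in tMCAO core, 69890 to 87720 in PostC core and 85450 to 91700 in sham core. Of the 3 miRNAs of oligodendrocytes, with 0 called, miR-338-3p differed by -3.32 between tMCAO and sham core and by -3.03 between PostC and sham core. miR-219a-2-3p, detected on all 18 arrays, differed by 0.37 and -0.22. The list medians, -2.28 and -1.99, were the values of miR-219a-5p, which was detected on 0 of 3 tMCAO core and 1 of 3 PostC core arrays. The list had summed levels of 3191 to 5047 in tMCAO, 1696 to 4041 in PostC and 4278 to 16310 in sham. The 2 miRNAs of endothelium had a median difference of -1.03 between tMCAO and sham core, with 0 called. Of red blood cell miRNAs 2 were tested and 0 called in the core comparisons. Between tMCAO and sham core miR-451-5p differed by -0.01 and miR-486 by 1.91, and in PostC core miR-451-5p was at -1.20 against tMCAO and -1.22 against sham. The red blood cell sum, over 3 probes, was 1511 to 1791 in PostC core, below 2967 to 4179 in tMCAO core and 2421 to 4272 in sham core without overlap. Of single miRNAs, 18.6% did not overlap between PostC and tMCAO core and 22.0% between PostC and sham core. miR-451-5p made up 60.8% to 95.8% of the sum over the 18 arrays. In PostC core miR-486 was at -0.91 against tMCAO but at 0.999 against sham, and miR-144-3p was detected on none of the arrays. In peri, where the leukocyte sum was 2800 to 4182 in tMCAO, 2423 to 3938 in PostC and 2682 to 2991 in sham, the leukocyte miRNAs had 0 calls in each comparison. The part of these cell types in the miR-182 values was not tested.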

How the data were processed

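For each of the 18 single-colour (Cy5) arrays, the deposited files give every spot's median pixel intensity, with neither background subtraction nor normalization. A linear table of background-subtracted intensities after locally weighted regression was deposited as well and served as an alternative. Background was corrected with normexp (offset 50) on all 3968 spots, and log2 values of the 3044 miRNA spots were normalized by cyclic loess over the 18 arrays. The 4 spots of a probe were averaged, and every level is relative to the other miRNAs on the array. The number of arrays limits the precision. Testing was limited to the 532 of 761 probes seen on 3 or more arrays, so a miRNA seen in 1 group alone could enter.

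Groups were compared in each region with limma 3.58.1 in R 4.3.3 (lmFit, eBayes with a variance trend, the 3 conditions sharing 1 estimate of the spread), with Benjamini-Hochberg adjustment over all tested probes at 0.05. Core and peri of sham rats were compared on paired differences. The fit was tested on simulated data before use. Exact permutation of 3 against 3 rats cannot reach a p of 0.05. The members and the miRNA lists were chosen with earlier results of these data known. The named miRNAs were the members, the opposite arms of their hairpins, any probe sharing a seed, the 3 tested probes most correlated with a member detected on at least 6 arrays, and examples from the lists. Rat numbers do not pair the conditions, which hold 9 different rats: deviations of same-numbered rats correlated between -0.448 and 0.443. The alternatives were plain subtraction of the empty spots with a floor of 1, median scaling, quantile normalization, the deposited table with a floor of 1, no filter, detection on all arrays, the limit set on the dimmest 25% of spots, no variance trend, the compared groups alone, the Student test of the methods, the replicate number as a block, unpaired regions and leaving out each rat. The rat means and control spots kept in the loess were added after seeing the data. The labels name a miRNeasy kit for the RNA and the methods Trizol. Sequences were read from the array files. No genome was used here, so no positions are given. Python 3.11.15, pandas 2.3.3 and matplotlib 3.10.9 served for sequences and figures.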

Additional observations from a re-analysis of the deposited data

How the results depend on the processing

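In 11 alternatives to each comparison, miR-182 kept its direction throughout. The planned tests against sham and of core against peri stayed without a call, except that tMCAO against sham in peri passed with median scaling (-1.46; limma, adjusted p = 0.0422), a scaling that moved the median of all miRNAs in that comparison to -0.42. With plain subtraction and in the deposited table, in turn, tMCAO minus sham went to -2.12 and -2.40 (limma, adjusted p = 0.057 for the latter) in core and to -3.05 and -1.92 in peri, and PostC minus sham to 4.0 and 1.85 in core and -1.58 and -0.37 in peri. As values without a test, PostC minus tMCAO moved in core to 6.12 with plain subtraction and 4.26 in the deposited table, in peri to 1.46 and 1.55, and in rat means to 3.79 and 2.90, with 1.81 under median scaling. Plain subtraction set all miR-182 spots on the core array of tMCAO rat 3 and the peri array of PostC rat 3 to the floor. The sizes that involve these arrays depend on that floor. The call of tMCAO against sham in rat means was lost with plain subtraction (-2.58; limma, adjusted p = 0.0939), no filter (-0.80; limma, adjusted p = 0.0533), the methods' t-test (-0.80; adjusted p = 0.0888) and the replicate block (-0.80; limma, adjusted p = 0.0974). It was kept in 7 of the 11 alternatives, among them control spots in the loess (limma, adjusted p = 0.0444). There the limma adjusted p ranged from 0.00623 in the deposited table (-2.16) to 0.0451 with the limit from the dimmest spots (-0.80). Median scaling gave -1.29 (limma, adjusted p = 0.00676). The replicate block gave PostC minus sham in core 1.64 (limma, adjusted p = 0.259) and changed no other miR-182 call. Detection on all arrays leaves miR-182 out.

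With each rat left out, PostC minus tMCAO ranged from 2.12 to 2.99 in core, 0.35 to 1.15 in peri and 1.43 to 1.67 in rat means. tMCAO minus sham ranged from -1.06 to -0.54, from -0.98 to -0.56 and from -0.94 to -0.64. PostC minus sham ranged from 1.28 to 2.15 in core, -0.40 to 0.40 in peri and 0.64 to 0.94 in rat means, and was 0.13 in peri without sham rat 3. Core minus peri in sham ranged from -0.92 to -0.22. miR-96-5p was detected on 0 arrays, or 3 with the limit from the dimmest spots.

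Counts of all miRNAs called depended on the setting. PostC against tMCAO in core had 12, and 0 to 30 in the alternatives, tMCAO against sham 18 in core (3 to 40) and 3 in peri (0 to 128), PostC against sham 0 in core (0 to 6). In rat means PostC against tMCAO had 30 (3 to 41), tMCAO against sham 63 (21 to 130) and PostC against sham 1 (0 to 2). The methods' t-test gave 0, 3, 0, 0, 6, 23 and 0 in this order and 0 in the other comparisons, and the causes were not tested. With each rat left out these counts ranged from 3 to 21, 0 to 27, 0 to 36, 0 to 8, 9 to 46, 8 to 96 and 0 to 3. PostC against tMCAO in peri had 0 calls in the alternatives and 59 without PostC rat 3, which also gave the 36 for tMCAO against sham in peri.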
